A study of Mus musculus with 4 samples.

Results

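Chemokine receptors are membrane proteins that read gradients of chemokines, the small secreted proteins that guide leukocytes into and through tissue. The classical receptors couple to inhibitory G proteins and drive migration. The atypical receptors bind chemokines without that coupling, and most of them take the ligand up and degrade it or carry it across a cell layer, so that they shape how much chemokine reaches the classical receptors. In peripheral nerve, Cx3cr1 and Ccr2 are known from resident macrophages and from recruited monocytes, Ackr1 from the endothelium of small veins, and Ackr3 and Cxcr4 as the pair that shares the chemokine Cxcl12.

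The genes described are 9 of the 50593 genes listed for the sciatic nerve, taken by their symbols. The choice was made with earlier results of these data known. They are the classical receptors Ccr1, Ccr2, Cx3cr1, Cxcr2 and Cxcr4, and the atypical receptors Ackr1, Ackr2, Ackr3 and Ackr4. All 9 were found under these symbols. The RNA came from mice of strain 129S1/SvImJ at 6 months of age, and the labels list 2 HSF V30M TTR and 2 HSF WT TTR mice. Both groups carry a heterozygous deletion of Hsf1, which encodes a heat shock transcription factor. HSF V30M mice carry in addition a transgene for the V30M variant of human transthyretin and lack the endogenous Ttr gene, so the transgene and the missing mouse gene cannot be told apart in this comparison, and the promoter of the transgene is not given in the sources used here. The comparison addresses whether the nerve of the amyloidosis model, in which chemokine ligands were studied, also differs in the receptors that read or remove those ligands.

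Levels are given as FPKM (fragments scaled to transcript length and to library size), with 1 value per gene and group that Cuffdiff estimated over the libraries of the group. No value per mouse was used, so no spread between mice is given. The test columns of the authors' own comparison were not used, and no test between the groups was run. The differences are described by their size and by a 95% counting interval. That interval rests on the number of fragments behind a value, and it covers counting error only. What 1 fragment of each library is worth was fitted to low values among 17276 genes with a single transcript in an unshared locus. Low values of these genes lay near a sum of whole fragments of the 2 libraries of a group. This held for 98.1% of 1448 in HSF WT (within 2%) and for 97.8% of 507 in HSF V30M (within 5%). The share that would lie so near by chance was not computed. By the fitted worths, the 2 libraries of HSF WT differed 1.35-fold in depth, and those of HSF V30M 1.16-fold. The tissue label was met by Schwann cell genes, a list of 8 markers whose FPKM summed to 12651 in HSF V30M against 11024 in HSF WT. Hsf1 was at 7.94 FPKM in HSF V30M against 15.0 in HSF WT, although both groups are described as heterozygous for its deletion. The reason for this difference was not tested. Mouse Ttr was at 6.10 FPKM in the group labelled HSF V30M, which lacks this gene, while the group labelled HSF WT has it at 0. Reads of the human transgene and of mouse Ttr are not told apart in the table, and the group labels are used as given.

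A short coding stretch is shown because it bears on the G protein coupling by which the classes are told apart. Classical receptors carry an aspartate, arginine and tyrosine run where the third membrane segment meets the second intracellular loop, a place that touches the G protein. The 21 coding bases from this place are printed for each gene, read 5′ to 3′ from the GENCODE M21 transcripts of GRCm38, and capitals mark the 3 codons aligned to that run.
Ccr1: GACAGATACctggccattgtc
Ccr2: GATAGGTACttggctattgtt
Cx3cr1: GACCGGTACcttgccatcgtc
Cxcr2: GACCGCTACctggccattgta
Cxcr4: GACCGGTACctcgctattgtc
Ackr1: AACCCCAGActgaatattggt
Ackr2: GACAAATACctggagattgtc
Ackr3: GACCGCTATctctccatcacc
Ackr4: GACAGATATtgggcaattacc
All 5 classical receptors encode the run, and 2 of the 4 atypical ones do, Ackr3 and Ackr4. Ackr2 and Ackr1 do not. The place in Ackr1, the most distant sequence, rests on the alignment of the whole proteins. The closest pair were Ccr1 and Ccr2, with 54.9% of 350 aligned residues identical, and the most distant pair Ackr1 and Ackr4, with 16.2% of 303.

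The 9 genes lie on 2 chromosomes, 4 on chromosome 1 and 5 on chromosome 9. The printed bases lie within exon 2 of the transcript read for Ccr1 at chr9:123964084-123964104 on the minus strand, exon 3 for Ccr2 at chr9:124106132-124106152 on the plus strand, and exon 3 for Cx3cr1 at chr9:120051936-120051956 on the minus strand. For Ackr2 they lie within exon 4 at chr9:121908978-121908998 on the plus strand, and for Ackr4 within exon 2 at chr9:104099321-104099341 on the minus strand. On chromosome 1 all of them lie within exon 2, for Cxcr2 at chr1:74158772-74158792 and Ackr3 at chr1:90214241-90214261 on the plus strand, and for Cxcr4 at chr1:128589500-128589520 and Ackr1 at chr1:173332477-173332497 on the minus strand. The 2 genes whose values rest on exons shared with a protein-coding gene, Ackr1 and Ackr4, are described with that neighbour.

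Across the group values, receptor transcripts were uneven in level. Ackr3 was the highest of the 9 in both groups and Cxcr2 the lowest. In HSF V30M the order was Ackr3, Ackr1, Cxcr4, Cx3cr1, Ackr4, Ccr2, Ackr2, Ccr1 and Cxcr2. In HSF WT the first 4 and the last 2 held the same places, and Ackr2, Ccr2 and Ackr4 followed each other in between. Neighbours whose counting intervals overlapped were Cxcr4 and Cx3cr1, Ackr4 and Ccr2, and Ccr2 and Ackr2 in HSF V30M. In HSF WT they were Ackr1 and Cxcr4, Cxcr4 and Cx3cr1, Ccr2 and Ackr4, and Ackr4 and Ccr1. Summed over the 4 atypical receptors, FPKM was 68.9 in HSF V30M against 57.0 in HSF WT, which is 78.3% and 69.5% of the sum over all 9 genes. Summed over the 5 classical receptors it was 19.1 and 25.0. The first sum rests mainly on Ackr3. Without Ackr3 the other 3 atypical receptors summed to 25.8 FPKM in HSF V30M against 20.2 in HSF WT, and Ackr2 and Ackr4 lay below Cxcr4 and Cx3cr1 in both groups. Without Ackr1, whose exons are shared with a neighbour, the other 3 atypical receptors summed to 49.96 FPKM in HSF V30M against 43.2 in HSF WT.

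**Figure D1:**
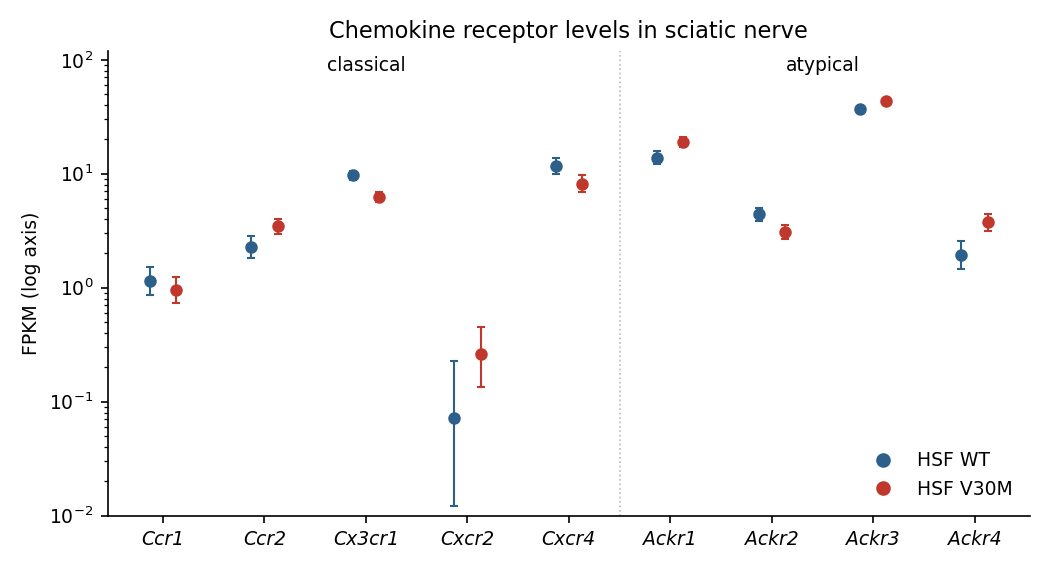
FPKM (log axis) of the 9 receptor genes in the sciatic nerve of HSF WT (blue) and HSF V30M mice (red), 1 group value each; bars are 95% exact Poisson intervals of the estimated fragments and cover counting error only. Ackr3 stands highest, at 36.8 in HSF WT and 43.1 in HSF V30M, and Cxcr2 lowest, at 0.0714 and 0.260.

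To compare the groups, ratios were taken as log2((HSF V30M + 1) / (HSF WT + 1)), a scale that understates the difference of low genes. Of the 9 genes, 8 had a mean FPKM of at least 1, and Cxcr2 did not. Of the 8, 4 were higher and 4 lower in HSF V30M, with a median log2 ratio of 0.04, against 0.0030 over all 15620 genes with such a mean. Past a fold of 1.5 on this scale was 1 gene of the 8, Ackr4, which was higher. Over all genes the share past the fold was 16.7%, made up of 8.22% higher and 8.44% lower. A count of 1 in 8 is close to that share and is no result about the receptors. Low genes pass it more often: 22.6% of genes with a mean of 1 to 5 did, a band that holds 4 of the receptors and Ackr4 among them, and 12.3% of genes with a mean of 5 to 50, a band that holds the other 4 and none past the fold. With a pseudocount of 0.1 in place of 1, 2 of the 8 passed the fold, Ackr4 higher and Cx3cr1 lower, where 21.7% of all genes did. With no pseudocount 3 of the 8 passed the fold, Ackr4 and Ccr2 higher and Cx3cr1 lower, where 19.9% of all genes did.

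**Figure D2:**
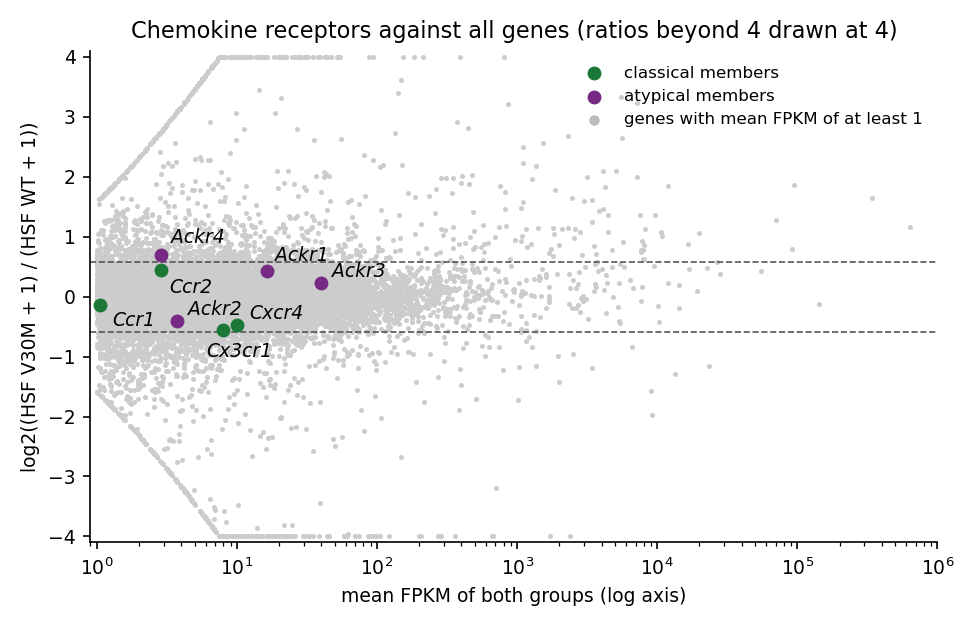
Log2((HSF V30M + 1) / (HSF WT + 1)) against the mean FPKM of both groups (log axis) for the 15620 genes with a mean of at least 1 (grey) and the 8 receptor genes among them (green classical, purple atypical); dashed lines mark a fold of 1.5, and 195 ratios beyond 4 are drawn at 4. Ackr4 lies above the upper line at 0.69, and Cx3cr1, at -0.56, lies just inside the lower one.

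Among the classical receptors, Cx3cr1 (ENSMUSG00000052336, chr9:119901616-120069879), the receptor for fractalkine on macrophages and monocytes, showed the lowest ratio. Its FPKM was 6.28 in HSF V30M against 9.72 in HSF WT, from about 407 to 686 and 444 to 867 fragments. This is 1.55-fold lower in HSF V30M (95% counting interval 1.35 to 1.77), with a log2 ratio of -0.56. Of its 4505 exon bases, 78 are shared with Gm33858, an antisense RNA at 0.220 and 0.160 FPKM. The ligand Cx3cl1, which neurons and endothelium carry on their membrane, was at 6.75 and 5.65 FPKM, a log2 ratio of 0.22 that did not pass the fold. Its group values thus differed in the direction opposite to those of the receptor, but no counting interval was computed for the ligand. Of 11 macrophage marker genes, 7 were lower and 4 higher in HSF V30M, 4 of them past the fold and lower. Their summed FPKM was 286 in HSF V30M against 473 in HSF WT, and none was at 0. These sums differed mainly through complement chains, which are C1qb, C1qa at 70.6 and 96.5 FPKM, and C1qc at 44.1 and 102. The markers did not move alike: C1qb, a complement chain, was at 58.7 and 139 FPKM, while Adgre1, a surface receptor of mature macrophages, was at 7.98 and 7.70 and Csf1r, the receptor that keeps macrophages alive, at 31.2 and 36.0. Relative to Csf1r within each group, Cx3cr1 was at 0.201 in HSF V30M against 0.270 in HSF WT. In bulk nerve, fewer cells of a type and less RNA per cell cannot be told apart, and the part of macrophage number in the Cx3cr1 value was not tested.

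Ccr2 (ENSMUSG00000049103, chr9:124101950-124113557), which draws inflammatory monocytes out of marrow and into tissue, went the other way. Its FPKM was 3.46 in HSF V30M against 2.29 in HSF WT, from about 157 to 487 and 72.9 to 263 fragments. This is 1.51-fold higher in HSF V30M (95% counting interval 1.14 to 2.03), with a log2 ratio of 0.44 that did not pass the fold. The ratio of Ccr2 to Cx3cr1 was 0.551 in HSF V30M against 0.235 in HSF WT. Of its ligands, Ccl2 was at 13.1 and 7.91 FPKM, past the fold and higher, Ccl7 at 4.5 and 5.64, and Ccl12 at 1.49 and 1.76. Of 4 monocyte markers, 3 had a mean FPKM of at least 1, and 1 of these was past the fold: Chil3, at 2.45 FPKM in HSF V30M against 0.612 in HSF WT. Ly6c2, which marks inflammatory monocytes, was at 2.25 and 3.05, and the summed FPKM of the list was 8.26 and 8.22. No monocyte marker was at 0 in either group, and their part in the Ccr2 value was not tested.

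Ccr1 (ENSMUSG00000025804, chr9:123962124-123968692), a receptor for inflammatory CC chemokines on myeloid cells, was low. Its FPKM was 0.960 in HSF V30M against 1.15 in HSF WT, from about 55.4 to 64.3 and 46.9 to 63.2 fragments, and its 1.20-fold lower value in HSF V30M lies within counting error (95% counting interval 0.797 to 1.81). Its ligands differed more than the receptor. Of 5, 4 had a mean FPKM of at least 1 and all 4 were lower in HSF V30M. Ccl5 was at 0.870 and 4.59 FPKM and Ccl6 at 8.42 and 14.9, both past the fold, while Ccl9 was at 7.71 and 10.2. The Ccl5 values rest on only about 6.3 to 7.3 fragments in HSF V30M and 23.5 to 31.7 in HSF WT. Ccl3, with a mean under 1, was higher at 0.430 and 0.284, from about 5.3 to 6.2 and 2.5 to 3.3 fragments.

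Cxcr2 (ENSMUSG00000026180, chr1:74153989-74161246), the receptor by which neutrophils follow CXC chemokines such as Cxcl1 and Cxcl2, was close to the limit of detection. Its FPKM was 0.260 in HSF V30M, from about 11.5 to 18.8 fragments, and 0.0714 in HSF WT, from about 2.2 to 4.2 fragments, where 3 fragments would give up to 0.0962. The ratio of 3.64 has a 95% counting interval from 0.848 to 28.8, so a difference was not detectable at this depth. Beside it, 6 of 7 neutrophil markers whose mean FPKM reached 1 were past the fold and higher in HSF V30M, with S100a9 at 59.0 and 13.8 FPKM, and 1 was past it and lower, Csf3r at 2.63 and 6.05. The summed FPKM of the 9 neutrophil markers was 108 in HSF V30M against 32.9 in HSF WT, none of them was at 0, and Ly6g, a defining marker, was at 0.120 and 0.195. All 5 ligands of Cxcr2 had a mean FPKM under 1. The highest group value among them was that of Ppbp, a platelet chemokine, at 1.82 FPKM in HSF V30M while HSF WT has it listed at 0, where 3 fragments would give up to 0.220.

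Cxcr4 (ENSMUSG00000045382, chr1:128588199-128592293), the receptor for Cxcl12, was the most abundant of the classical receptors. Its FPKM was 8.18 in HSF V30M against 11.7 in HSF WT, from about 126 to 334 and 127 to 392 fragments. This is 1.44-fold lower in HSF V30M (95% counting interval 1.11 to 1.85), with a log2 ratio of -0.47. Cxcl12, which stromal cells secrete, was at 42.6 and 35.9 FPKM. Ackr3 (ENSMUSG00000044337, chr1:90203980-90216751), the atypical receptor that removes Cxcl12, was at 43.1 and 36.8 FPKM, from about 2709 to 3143 and 1628 to 2192 fragments, which is 1.17-fold higher in HSF V30M (95% counting interval 1.10 to 1.25). Ackr3 had more transcripts per length than 87.8% of the 15620 genes in HSF V30M and than 85.8% in HSF WT. The proportion of Cxcl12 to Ackr3 was 0.988 in HSF V30M against 0.975 in HSF WT. With a single value per group, such proportions do not measure a link between genes. Against Cxcr4 the proportion of Ackr3 was 5.27 in HSF V30M against 3.13 in HSF WT, and that of Cxcl12 was 5.21 and 3.05. Cxcl11, the other ligand of Ackr3, was at 1.57 and 1.59 FPKM.

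Cxcr4 is also carried by lymphocytes, and most lymphocyte markers had lower values in HSF V30M. All 4 B cell markers whose mean FPKM reached 1 were past the fold and lower, with Cd79a at 0.650 and 7.09 FPKM, and the 6 markers summed to 2.69 in HSF V30M against 22.8 in HSF WT. All 3 T cell markers with such a mean were past the fold and lower, with Cd4 at 0.520 and 3.88 FPKM, while Cd3d, a chain of the T cell receptor complex with a mean under 1, was at 0.510 and 0.486, and their list of 6 summed to 2.40 and 11.3. None of the 12 markers was at 0. Their part in the Cxcr4 value was not tested.

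Among the atypical receptors, Ackr4 (ENSMUSG00000079355, chr9:104084157-104126933) stood apart from HSF WT by the largest ratio. Ackr4 removes Ccl19, Ccl21 and Ccl25, the chemokines that lead dendritic cells and lymphocytes to lymph nodes and gut. Its FPKM was 3.77 in HSF V30M against 1.95 in HSF WT, from about 120 to 210 and 43.8 to 88.8 fragments. This is 1.93-fold higher in HSF V30M (95% counting interval 1.36 to 2.80), with a log2 ratio of 0.69. Of its exon bases, 479 of 5380 are shared with Acad11, a mitochondrial enzyme gene on the opposite strand. Acad11 was at 8.68 and 8.35 FPKM. Whether the counting used the strand is not given in the sources used here, so reads of the shared bases may have been assigned to either gene. Of the ligands of Ackr4, Ccl21a was at 25.1 FPKM in HSF V30M against 34.9 in HSF WT, Ccl25 at 4.76 and 3.07, and Ccl19 at 1.40 and 1.45, and none passed the fold. Ccl21a has near-identical copies in the genome, so its value is uncertain.

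Ackr2 (ENSMUSG00000044534, chr9:121898355-121911074), the scavenger of inflammatory CC chemokines that lymphatic endothelium is known for, was lower. Its FPKM was 3.08 in HSF V30M against 4.41 in HSF WT, from about 179 to 221 and 181 to 258 fragments, which is 1.43-fold lower in HSF V30M (95% counting interval 1.16 to 1.77) with a log2 ratio of -0.41. Ackr2 and Ackr4 thus differed in opposite directions. Of 8 ligands of Ackr2, 4 had a mean FPKM of at least 1. Of these Ccl11, the eosinophil chemokine and the most abundant of them, was at 48.4 and 67.0 FPKM. The lymphatic endothelium markers had a summed FPKM of 17.6 in HSF V30M against 17.9 in HSF WT, and none passed the fold. Flt4, a growth factor receptor of lymphatic vessels, was at 4.37 and 3.15, Mmrn1 at 3.71 and 3.35, and Lyve1, which macrophages also express, at 8.88 and 10.9. No marker of this list was at 0, and Prox1, its defining transcription factor, was at 0.660 and 0.527.

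Ackr1 (ENSMUSG00000037872, chr1:173331886-173333750), which binds inflammatory chemokines of both the CC and CXC classes on small veins and on red cell precursors, was the second most abundant. Its FPKM was 19.0 in HSF V30M against 13.9 in HSF WT, from about 384 to 460 and 197 to 275 fragments. This is 1.37-fold higher in HSF V30M (95% counting interval 1.15 to 1.63), with a log2 ratio of 0.43 that did not pass the fold. Of its 1405 exon bases, 361 (25.7%) are shared on the same strand with Cadm3, a cell adhesion gene whose longest transcript runs into the start of Ackr1. Cadm3 was at 180 FPKM in HSF V30M against 147 in HSF WT, 9.49 and 10.6 times the level of Ackr1, so the value of Ackr1 depends on how Cuffdiff divided the shared reads, and the interval does not cover this. Of 6 ligands listed for Ackr1, 3 had a mean FPKM of at least 1, which are Ccl2, Ccl5 and Ccl7 with the values given above. Among venous endothelium markers, Vwf, the clotting factor carrier, was past the fold and higher at 52.5 and 27.3 FPKM, Selp was at 8.98 and 7.41, and Ephb4 at 22.2 and 18.3, while Nr2f2, a transcription factor of vein identity and the most abundant of the list, was lower at 200.3 and 226. Of the 4 whose mean FPKM reached 1, 3 were thus higher and 1 lower, and the summed FPKM of that list of 5 was 284 and 280, and none was at 0. Of 6 erythrocyte markers whose mean FPKM reached 1, 5 were past the fold and higher, with a summed FPKM over the list of 7 of 292 in HSF V30M against 101 in HSF WT. None of these was at 0. The part of either list in the Ackr1 value was not tested.

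**Figure D3:**
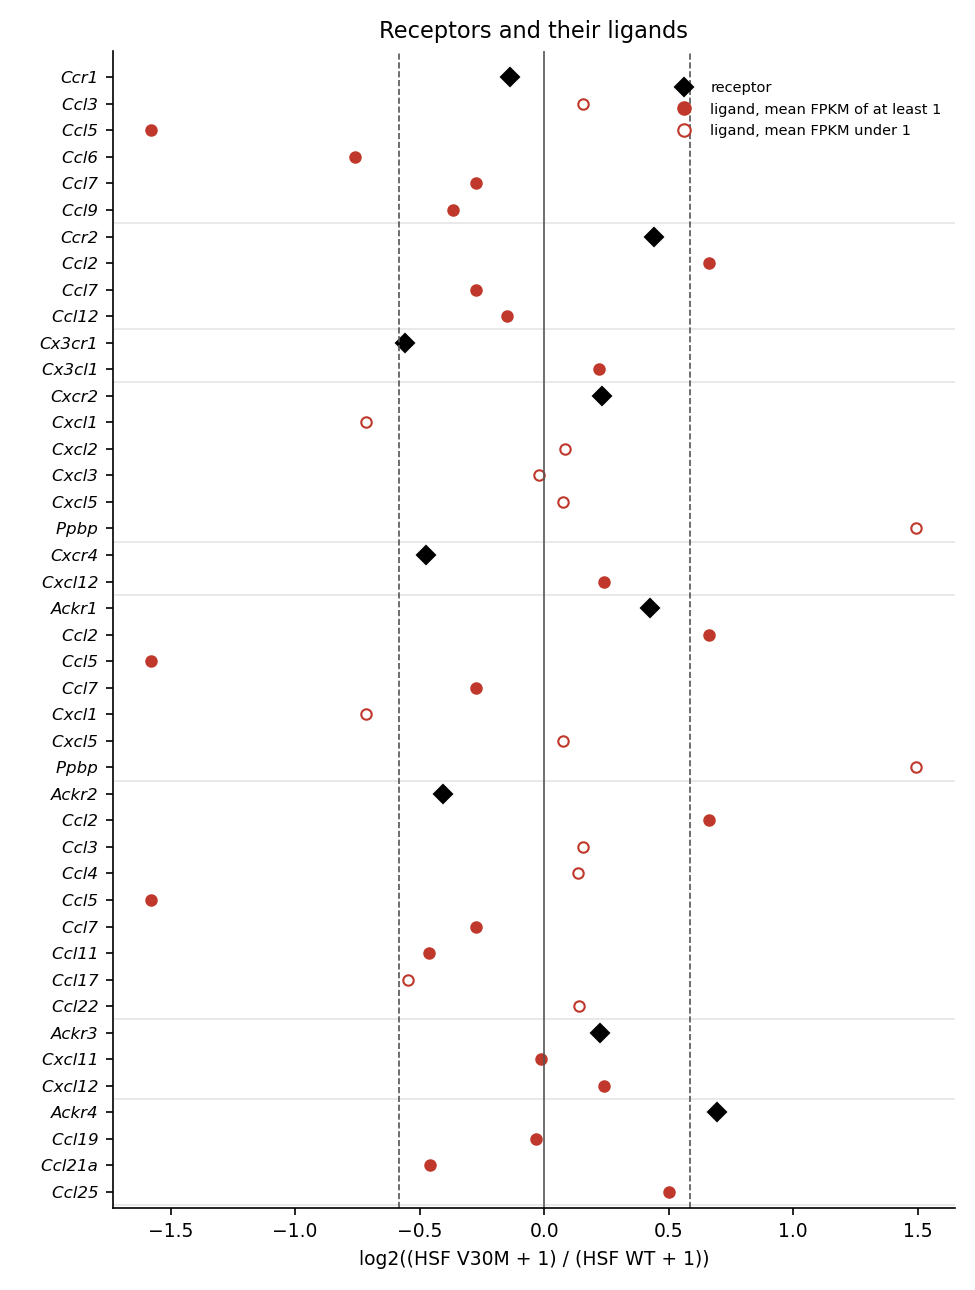
Log2((HSF V30M + 1) / (HSF WT + 1)) of each receptor (black diamond) and the chemokines listed as its ligands (circles, open where the mean FPKM is under 1); a ligand of several receptors is drawn under each, and dashed lines mark a fold of 1.5. Cxcl12 lies at 0.24 with Ackr3 at 0.22 and Cxcr4 at -0.47, and Ccl5 lies lowest at -1.58. The Ccl5 value in HSF V30M rests on only about 6.3 to 7.3 fragments.

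Across all receptors, the 22 distinct ligands listed were all in the table and 13 had a mean FPKM of at least 1. Of these, 4 were higher and 9 lower in HSF V30M, with 1 past the fold and higher and 2 past it and lower, and their median log2 ratio was -0.15. Over all genes with such a mean 16.7% were past the fold, and 22.6% of those with a mean of 1 to 5. The ligand count past the fold is close to these shares and is no result about the ligands. Among the 17 other chemokine receptors, which include chemokine-binding relatives, 5 had a mean of at least 1, of which 1 was higher and 4 lower. Cmklr1, the chemerin receptor, was at 18.0 and 18.9, and Gpr182, an endothelial chemokine scavenger, at 2.20 and 1.58. Ccr1l1 and Ccr4 are listed at 0 in both groups.

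**Figure D4:**
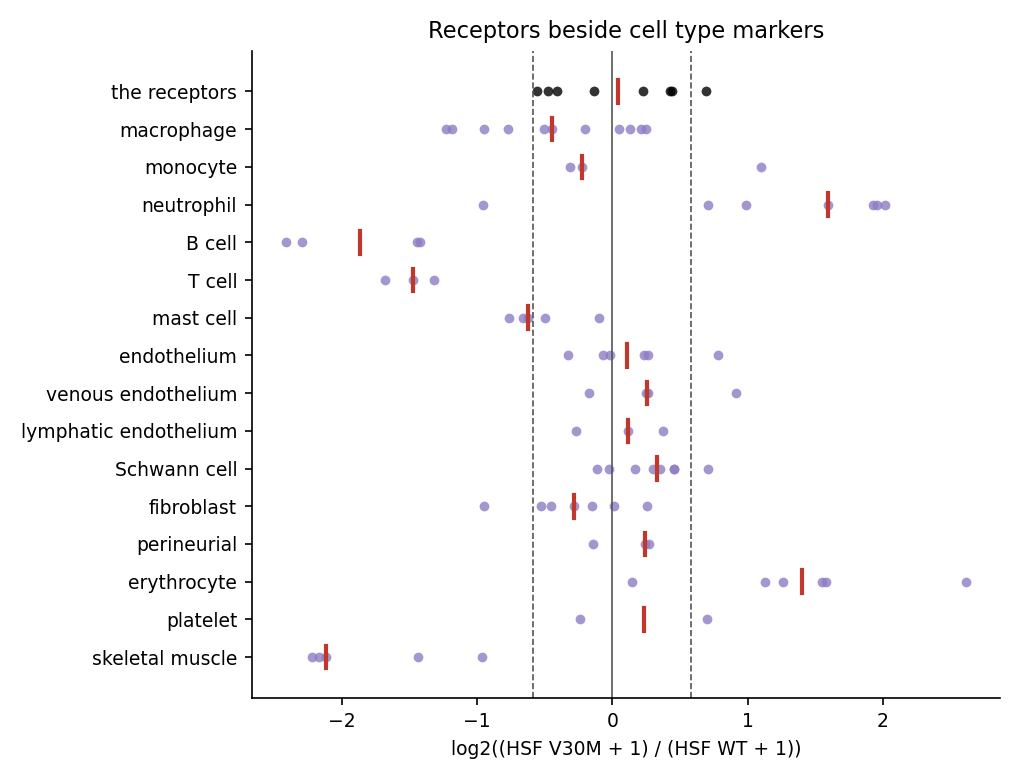
Log2((HSF V30M + 1) / (HSF WT + 1)) of the receptor genes (black) and of cell type marker genes (purple) with a mean FPKM of at least 1; red bars are medians and dashed lines mark a fold of 1.5. Receptor ratios run from -0.56 to 0.69, while the neutrophil and erythrocyte medians lie at 1.60 and 1.40 and the B cell and skeletal muscle medians at -1.87 and -2.11.

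Genes of receptor signalling were counted as a further list. Of 25 symbols, 2 of which are older names of listed genes, 23 were in the table and 21 had a mean FPKM of at least 1. Of these 10 were higher and 11 lower, with a median log2 ratio of -0.01. The 1 past the fold was Rac2, a small GTPase of blood cell migration, at 3.12 FPKM in HSF V30M against 5.89 in HSF WT. Gnai2, the main inhibitory G protein subunit of leukocytes, was at 232 and 193, and Arrb2, an arrestin that brings receptors into the cell, at 44.4 and 33.2. Grk2, a kinase that marks active receptors for arrestin, was at 38.8 and 26.1, with a log2 ratio of 0.55 that did not pass the fold.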

How the data were processed

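RNA from sciatic nerve of the 4 mice was sequenced with Ion Torrent libraries. The genome build was GRCm38, and the submitters' processing notes name STAR, Cufflinks and Cuffdiff, whose versions and options are not given in the sources used here. The deposited table has FPKM values from the authors' Cuffdiff run, 1 per gene and group, which depend on the annotation and on how reads of shared exons were divided. It also holds the authors' log2 fold change, test statistic, p-value and q-value, which were not used. Decimal commas were replaced by points, and 23 genes with too many alignments were left out. The 9 genes and all lists were chosen with earlier results of these data known. Genes named beyond the 9 are listed ligands, list members past the fold, list markers and genes that share exons. Further list genes that did not pass the fold were chosen after their values were seen, and some list genes are not reported here.

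Ratios used a pseudocount of 1, a fold of 1.5 and a minimum mean FPKM of 1. Fragments were estimated as FPKM times the transcript length less 200 bases, divided by the worth of 1 fragment, from the shortest coding transcript over 600 bases and the shallower library to the longest and the deeper library. Transcripts are those of GENCODE M21, which held 50346 of 50570 gene identifiers. Intervals of a level are exact Poisson and those of a ratio conditional exact binomial (Clopper-Pearson), both at 95%. Coding sequences were aligned as proteins with MAFFT 7.526. The scripts were tested on simulated data and used Biopython 1.88, pandas 2.3.3, matplotlib 3.10.9, numpy 2.4.6 and scipy 1.17.1 under Python 3.11.15.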

Additional observations from a re-analysis of the deposited data

How the results depend on the processing

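No paired analysis was possible because each group has a single FPKM value per gene, and for the same reason no mouse was left out. The number of receptor genes past the fold was 1. It was 2 with a pseudocount of 0.1 (Ackr4 and Cx3cr1), 3 with none, and 0 with a fold of 2 or with a minimum mean FPKM of 5, under which 4 of the 9 remain. Over all genes it was 2603, 3395 with a pseudocount of 0.1, 3016 with none, and 1237 with a fold of 2 and 1378 with a mean of at least 5; the last 2 settings are stricter by construction. The median log2 ratio of the receptors turned from 0.04 to -0.0074 when the pseudocount was 0.1, and without one it was -0.019. No single receptor changed direction in 27 recomputed ratios, but a change of pseudocount cannot turn a direction. The remaining setting rescaled the groups by factors of only 1.00155 and 0.998452, so the unchanged directions are no check. With no pseudocount the log2 ratio of Cxcr2 was 1.86, outside its counting interval on the scale with a pseudocount of 1, -0.015 to 1.51. The 2 scales differ, and the linear ratio of 3.64 lies within its own interval of 0.848 to 28.8. With the shortest coding transcript in place of the longest, the median number of fragments behind a receptor was 168 in place of 309 in HSF V30M and 146 in place of 224 in HSF WT. Counting all genes by bands of mean FPKM, and with no pseudocount, was added after seeing the data. Depth limits Cxcr2 and Ccr1, whose ratio intervals include 1.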

Other observations

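Several receptors known from lymphocytes sat under the mean FPKM of 1. Cxcr5, which leads B cells into follicles, was at 0.13 FPKM in HSF V30M and 1.33 in HSF WT, Ccr6, carried by B cells and some T cells, at 0.220 and 1.21, and Cxcr3, of activated T cells, at 0.370 and 1.08. Ccr7, which leads lymphocytes and dendritic cells to lymph nodes, was at 0.02 and 0.146. Ccr10, of skin-homing T cells, was at 0.970 and 0.709. Cd79b, a chain of the B cell receptor, was at 0.530 and 7.16 FPKM. Of 5 mast cell markers with a mean FPKM of at least 1, all were lower and 3 of them past the fold, with Mcpt4 at 41.7 and 64.9 FPKM, Tpsb2 at 48.1 and 76.7 and Cma1 at 19.4 and 33.8. Kit, the stem cell factor receptor, was at 4.05 and 4.42, Cpa3, a mast cell protease, at 12.7 and 18.4, and Fcer1a, a chain of the IgE receptor with a mean under 1, was higher at 0.850 and 0.551. The mast cell list of 6 summed to 127 FPKM in HSF V30M and 199 in HSF WT.

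Markers of structural cells were also summed. Schwann cell markers summed to 12651 FPKM in HSF V30M and 11024 in HSF WT, fibroblast markers to 2018 and 2164, and perineurial markers to 470 and 402. Of 6 endothelium markers 3 were higher and 3 lower. Their sums of 209 and 171 differed mainly through Cldn5, a tight junction gene, which was past the fold and higher at 100.2 and 57.9, while Pecam1, an adhesion molecule of endothelium, was at 44.9 and 56.5. Platelet markers summed to 54.8 and 57.3, most of it Pf4, a platelet chemokine, at 42.1 and 49.9. Itga2b, the platelet integrin chain, was past the fold and higher at 10.9 and 6.31, Gp1ba was at 1.02 and 0.859, and Gp9 at 0.710 and 0.212. Skeletal muscle markers were all past the fold and lower, and summed to 34.2 and 126 FPKM.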
